A study of Homo sapiens with 6 samples.

Results

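The 9 genes described here flank ERBB2 on chromosome 17 at 17q12 to q21, and were chosen by name: MED1, CDK12, PPP1R1B, STARD3, PGAP3, MIEN1, GRB7, GSDMB and ORMDL3. ERBB2 itself was left out and serves as a reference. All 9 were among the 30327 genes of the count table, and all 9 had enough reads to be tested. RNA was sequenced from SK-BR-3, an established HER2-positive breast cancer cell line, in 3 libraries of a nontargeting siRNA control (si_NC) and 3 libraries described as si_GRB2, an siRNA directed at GRB2. Both groups were thus transfected, and the labels give no time after transfection. The titles of the treated libraries speak of GRB2 overexpression, and the study's methods also name the sequenced group so in one place, whereas the descriptions read si_GRB2 and the methods describe siRNA transfection elsewhere. The study's methods give a single siRNA sequence against GRB2, whereas the supplement lists RNA from more than one. The labels do not say which siRNA these libraries received. The line is a single cell line, and the labels do not say whether the 3 libraries of a group came from separate cultures, so the p-values measure the spread between these libraries, which may be technical.

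GRB2, the adaptor that links receptor tyrosine kinases to RAS, was measured first because it checks the labels. It had 124, 129.5 and 126 TMM-normalized reads per 1000000 (CPM) under si_NC and 27.8, 28.1 and 29.6 CPM under si_GRB2. Its log2 fold change was −2.15 (SE 0.04, adjusted p = 3.87e-15, edgeR). It was lower in each library described as si_GRB2, the direction of a knockdown. The depth of the libraries ranged from 24810378 to 28532480 reads assigned to genes. The epithelial markers KRT8, KRT18, KRT19 and EPCAM were present, with mean FPKM (fragments per kilobase of transcript per 1000000 fragments, the authors' values) of 66.5 to 1246 in si_NC. Leukocyte PTPRC, endothelial PECAM1 and fibroblast DCN had at most 2 reads in any library. The collagen gene COL1A1 had 104 to 149 reads per library, and its value of 0.023 did not pass the test (adjusted p = 0.932, edgeR). All 4 epithelial markers fell in si_GRB2, their summed level going from between 13360.8 and 13700.6 reads per 1000000 to between 10471.6 and 10817 reads per 1000000. Of the 8 markers of other cell types, the basal keratin KRT5 fell (log2 fold change −1.02, adjusted p = 2.82e-08, edgeR) and the summed level went from between 21.2 and 22.6 to between 12.8 and 13.8 reads per 1000000. Most of that fall was KRT5, with means of 17.1 CPM in si_NC and 8.43 CPM in si_GRB2. COL1A1 had means of 4.5 and 4.57 CPM, and the remaining markers had too few reads to be tested. The part of these markers in the results on the 9 genes was not tested. In such bulk libraries, fewer cells of a type and less RNA per cell cannot be told apart.

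HER2-positive tumours carry extra copies of a stretch of 17q12 whose driver is ERBB2, the receptor tyrosine kinase HER2. The genes beside ERBB2 are often copied along with it and are therefore often highly expressed in such tumours, although each has its own promoter and its own function. They code for proteins of transcription (MED1, CDK12), signalling (PPP1R1B, GRB7, MIEN1), lipid handling (STARD3, PGAP3, ORMDL3) and membrane pores (GSDMB). Copy number was not measured in these libraries.

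On GRCh38, the genes run along the plus direction from MED1 (39404285 to 39451272, minus strand) through CDK12 (39461486 to 39567559, plus strand), PPP1R1B (39626740 to 39636626, plus), STARD3 (39637090 to 39664201, plus) and PGAP3 (39671122 to 39696797, minus) to ERBB2 (39687914 to 39730426, plus). Beyond it lie MIEN1 (39728496 to 39730532, minus), GRB7 (39737927 to 39747291, plus), GSDMB (39904595 to 39919854, minus) and ORMDL3 (39921041 to 39927601, minus). PPP1R1B and STARD3 are separated by 463 bases, and GSDMB and ORMDL3 by 1186 bases. Exons of ERBB2 on the opposite strand share 571 bases with MIEN1, which is 28% of the exon bases of MIEN1, and 144 bases with PGAP3, which is 4% of those of PGAP3. ERBB2 had 608527 reads over the 6 libraries against 121525 for MIEN1 and 33513 for PGAP3. The library kit keeps the strand, but the sources used here do not say whether the counting used it, and without strand the reads of the shared bases cannot be told apart. A noncoding gene on the opposite strand shares 754 bases with MED1 and had 1821 reads against 81438 for MED1. The other 6 genes share no exon base with another gene of the annotation.

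Promoter windows of 300 bases, from 250 before to 50 after the RefSeq start, were found for 6 of the 9 genes (MED1, CDK12, STARD3, PGAP3, MIEN1 and ORMDL3), with 8 windows among them because ORMDL3 has 3. PPP1R1B, GRB7 and GSDMB had no entry. The 3 windows shown are those of the genes that hold the letters CCGGAAG, a core often bound by ETS factors, on either strand. Capitals mark CCGGAAG and the GC box GGGCGG, both read on either strand. Each is written 5′ to 3′ on the strand of its gene (RefSeq, GRCh38.p14).
STARD3, chr17:39636894-39637193, plus strand: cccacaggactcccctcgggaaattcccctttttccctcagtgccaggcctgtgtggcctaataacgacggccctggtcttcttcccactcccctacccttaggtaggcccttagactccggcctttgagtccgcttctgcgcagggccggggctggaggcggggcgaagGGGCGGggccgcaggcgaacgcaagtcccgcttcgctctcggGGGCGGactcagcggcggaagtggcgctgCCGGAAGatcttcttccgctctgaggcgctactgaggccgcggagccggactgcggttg
PGAP3, chr17:39688008-39688307, minus strand: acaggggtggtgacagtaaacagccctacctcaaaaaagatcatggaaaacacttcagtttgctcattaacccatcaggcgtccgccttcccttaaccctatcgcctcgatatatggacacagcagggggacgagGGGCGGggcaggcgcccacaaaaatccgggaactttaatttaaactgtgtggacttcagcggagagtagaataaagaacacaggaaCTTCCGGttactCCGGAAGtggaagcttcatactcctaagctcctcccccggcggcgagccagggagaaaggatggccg
MIEN1, chr17:39730483-39730782, minus strand: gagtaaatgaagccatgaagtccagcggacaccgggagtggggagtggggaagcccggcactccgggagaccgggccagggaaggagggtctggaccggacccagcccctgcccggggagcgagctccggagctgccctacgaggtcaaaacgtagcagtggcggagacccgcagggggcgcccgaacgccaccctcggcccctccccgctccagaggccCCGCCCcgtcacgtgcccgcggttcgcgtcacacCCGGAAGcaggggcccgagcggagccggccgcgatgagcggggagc

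CCGGAAG occurred in 10.3% of all 35116 windows of this length. STARD3 and MIEN1 held it 1 time each and PGAP3 held it 2 times. The RefSeq starts used for the windows of PGAP3 (39688057) and ERBB2 (39688094) lie 37 bases apart on opposite strands. These windows share 136 bases, within which both CCGGAAG matches lie (39688068 to 39688074 and 39688080 to 39688086). By the gene positions given above, the outermost starts of PGAP3 and ERBB2 lie 8.9 kb apart and the genes overlap. The short distance therefore holds for these RefSeq starts only, and which starts these cells use was not tested. GGGCGG occurred in 45% of all windows and in those of STARD3, PGAP3, MIEN1 and ORMDL3. GCCNNNGGC, a core bound by AP-2 factors, was found in the window of STARD3 (23.2% of all windows), CACGTG in that of MIEN1 (7.3%) and CCAAT in that of MED1 (34.6%). Neither TATAAA (11.5%) nor TGANTCA (7.7%) occurred in the windows of the 6 genes, and all motifs were read on both strands. Of the 3 genes whose windows hold CCGGAAG, STARD3 fell in si_GRB2, PGAP3 was slightly higher and MIEN1 did not pass the test.

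The levels of the neighbours in control cells differed widely. MIEN1, a small membrane-anchored protein linked to cell migration, stood highest, with 287, 308 and 309.8 FPKM in the si_NC libraries, and ranked 101 of 27390 genes with an FPKM above 0. ERBB2 followed with 268, 263 and 286 FPKM, each below the lowest value of MIEN1, though narrowly (285.54 against 286.55 FPKM at the nearest libraries). ERBB2 had more reads, 608527 against 121525, so this order rests on the exon lengths used. The exon bases shared with ERBB2, 28% of those of MIEN1, also make the level of MIEN1 uncertain if counting ignored strand. Next came GSDMB, of the pore-forming gasdermins, with 78.4, 82.8 and 87.5 FPKM, and GRB7, an SH2 adaptor that binds HER2, with 64.1, 66 and 71.6 FPKM. These 4 genes did not overlap with their neighbours in the order, down to STARD3.

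STARD3, which moves sterols at contacts between late endosomes and the endoplasmic reticulum, had 55.6, 58.2 and 61.6 FPKM in si_NC. Its range overlapped that of CDK12, the cyclin K-dependent kinase of RNA polymerase II, at 52.1, 54.1 and 56.3 FPKM. MED1, the Mediator subunit contacted by nuclear receptors, had 45.4, 45.3 and 47.9 FPKM. PGAP3, which remodels the lipid of GPI anchors, overlapped MED1 at 42.5, 43.5 and 49.1 FPKM. ORMDL3, an inhibitor of the first enzyme of sphingolipid synthesis, had 37.1, 38.7 and 40.8 FPKM. PPP1R1B (DARPP-32), which inhibits protein phosphatase 1 once phosphorylated by protein kinase A, was far below the others at 1.11, 1.24 and 1.14 FPKM.

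Thus 8 of the 9 genes lay in the top 5% of genes by FPKM in si_NC, while PPP1R1B ranked 10412 of 27390, at percentile 62. The highest and lowest mean differed 259-fold, and 7.75-fold without PPP1R1B. The reads of PPP1R1B numbered 182, 181 and 174 in si_NC, although the next gene, STARD3, had 11704, 10910 and 12103 reads. Reads per kilobase computed from the counts and the exon lengths of GENCODE 44 gave the same order. The values were 1.17 times the authors' FPKM for CDK12 and 1.244 to 1.248 times for the other 8 genes. With the same counts and a nearly constant ratio, this is not an independent check of the order.

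**Figure D1:**
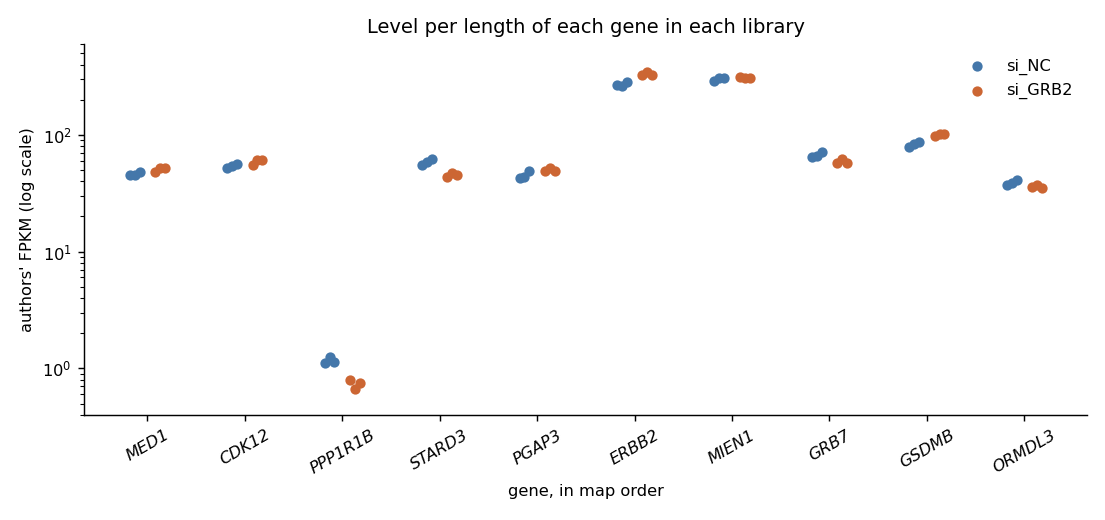
Level of ERBB2 and its 9 neighbours, as the authors' FPKM on a log axis, with 1 point per library (blue si_NC, orange si_GRB2) and genes in map order. MIEN1 and ERBB2 stand above the rest at 263 to 310 FPKM in si_NC, and PPP1R1B lies near 1 FPKM between neighbours above 40.

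Among the 44 other genes tested within 1000 kb of the ERBB2 start, the median FPKM in si_NC was 6.08 against 54.2 for the 9 neighbours, and 11 of 44 were above 20 FPKM against 8 of 9. The 44 include noncoding genes with little RNA, whereas all 9 neighbours code for proteins, and the part of gene type in this difference was not tested. High levels were also seen further away, up to 4060 FPKM for the ribosomal protein gene RPL19, which lies before MED1. In between lay genes with little RNA, such as the lymphoid factor IKZF3 at 0.12 FPKM. The 9 genes were named as neighbours often copied with ERBB2, so their levels describe them and test nothing.

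The comparison of si_GRB2 with si_NC asks whether the neighbours of ERBB2 changed when GRB2 was lowered, and whether they did so as a block. They did not move as a block. Of the 9 genes, 4 fell (PPP1R1B, STARD3, GRB7 and ORMDL3), 4 rose (GSDMB and, by less, PGAP3, MED1 and CDK12) and MIEN1 did not pass the test, at an adjusted p under 0.05 (edgeR's quasi-likelihood test, adjusted over all 15801 genes tested). Over all genes tested, 30.6% passed in either direction, 15.2% as higher and 15.5% as lower. Precision rises with depth, and among the 1955 genes with at least 100 CPM in si_NC 54.7% passed, against 7 of the 8 neighbours at that level. With 1 library left out, 5 to 7 of the 9 passed, and the fewest, 5, were found without si_NC replicate 2 and without si_GRB2 replicate 2. In these fits 3774 to 4420 of all genes passed, with 16057 to 16157 tested. With limma on the log2 of the authors' FPKM, 3 passed (PPP1R1B, STARD3 and GSDMB). Of all 29912 genes tested there, 1400 passed on log2(FPKM + 1) and 1534 on log2(FPKM + 0.1). Where genes with a mean under 1 FPKM were left out, which removed PPP1R1B, 3 passed as well (STARD3, GSDMB and GRB7), as did 2689 of all 10888 genes tested. The median log2 fold change of the 9 genes was −0.0082 and that of all genes tested 0.0019. Their median absolute value was 0.15, against 0.14 over all genes tested and 0.095 over the genes with at least 100 CPM.

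A differentially expressed gene (DEG) was defined with the study's limits, a change of more than 1.5-fold in either direction and p under 0.01, taken here with the adjusted p. PPP1R1B was the 1 gene of the 9 that met them, where 2.52% of all genes tested did. Under glmTreat, which tests against the fold limit itself, 0 of the 9 passed, where only 56 of all 15801 genes tested did. The libraries of both groups did not overlap in 7 of the 9 genes, compared with 42.3% of all genes tested.

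**Figure D2:**
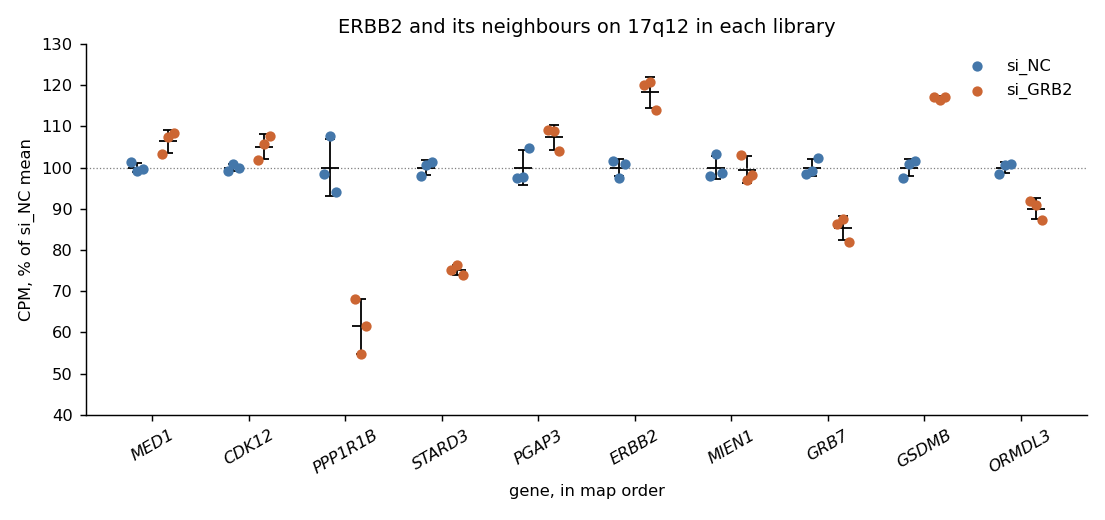
CPM of ERBB2 and its 9 neighbours in each library as a percentage of the si_NC mean of that gene (points; blue si_NC, orange si_GRB2), with mean and SD of 3 libraries, in map order; the axis starts at 40%. Genes below 100% in si_GRB2 (PPP1R1B, STARD3, GRB7, ORMDL3) stand beside genes above it (ERBB2, GSDMB).

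STARD3 fell the most among the well-expressed neighbours. It had 417, 428 and 431 CPM in si_NC and 319.7, 325 and 315 CPM in si_GRB2, so that the groups were 92.4 CPM apart at their nearest libraries. The means were 426 ± 7.39 and 319.7 ± 5.15 CPM (SD, n = 3 each). The log2 fold change was −0.41 (SE 0.026, adjusted p = 7.36e-09, edgeR), and STARD3 fell by 24.9%. With each library left out in turn it stayed between −0.43 and −0.40.

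PPP1R1B, directly before STARD3, had 6.49, 7.1 and 6.2 CPM in si_NC and 4.49, 3.61 and 4.07 CPM in si_GRB2. Each si_GRB2 library was below each si_NC library. The log2 fold change was −0.70 (SE 0.13, 95% interval −0.97 to −0.44, adjusted p = 0.000445, edgeR), and PPP1R1B fell by 38.6%. Its low depth, 99 to 182 reads per library, makes this the least precise of the 9 changes. On log2(FPKM + 1) it was −0.32, since the pseudocount is close to the level of the gene. Among all genes tested, the 3 whose log2 CPM over the 6 libraries, centred on each gene's own mean, differed least from that of PPP1R1B were DUSP5, PJA1 and CXCR6, with root mean square differences of 0.031, 0.054 and 0.061. Their means in si_NC were low as well, at 10.9, 5.66 and 1.46 CPM. The 6 values include the difference between the groups, so any gene with a similar fall comes close, and shared regulation was not tested.

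GRB7 had 296, 298 and 308 CPM in si_NC and 259.5, 263 and 247 CPM in si_GRB2, without overlap. The log2 fold change was −0.23 (SE 0.03, adjusted p = 2.58e-05, edgeR), a fall by 14.7%. ORMDL3 had 179, 183 and 183 CPM in si_NC and 167, 165 and 158 CPM in si_GRB2, again without overlap, and a log2 fold change of −0.15 (SE 0.03, adjusted p = 0.00113, edgeR). Both kept an adjusted p under 0.05 with each library left out in turn. With limma on log2(FPKM + 1) neither passed (adjusted p = 0.122 for GRB7 and 0.27 for ORMDL3, limma). With a minimum mean of 1 FPKM GRB7 passed (adjusted p = 0.0295, limma) and ORMDL3 did not (adjusted p = 0.141), and the FPKM of ORMDL3 overlapped between groups.

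GSDMB rose the most. It had 594, 615 and 618 CPM in si_NC and 714, 709.6 and 713 CPM in si_GRB2, with the groups 91.2 CPM apart. Its log2 fold change was 0.23 (SE 0.024, adjusted p = 2.61e-06, edgeR), or 16.9% higher, and remained between 0.20 and 0.23 with each library left out. GSDMB and ORMDL3 are adjacent on the same strand and went in opposite directions. GSDMB had 332, 337 and 337 reads per 100 reads of ORMDL3 in si_NC and 428, 429 and 450.2 in si_GRB2. This ratio is free of any scaling between libraries, and its groups did not overlap. It sets a gene that rose against one that fell, so it restates the changes of the single genes.

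PGAP3 had 198, 198 and 212 CPM in si_NC and 221, 221 and 211 CPM in si_GRB2, so that the lowest si_GRB2 library lay below the highest si_NC library. The log2 fold change was 0.10 (SE 0.034, adjusted p = 0.03, edgeR). It no longer passed without si_NC replicate 1 (0.076, adjusted p = 0.152, edgeR), si_NC replicate 2 (0.079, adjusted p = 0.173), si_GRB2 replicate 1 (0.09, adjusted p = 0.1) or si_GRB2 replicate 2 (0.091, adjusted p = 0.116).

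MED1 had 501, 490.4 and 493 CPM in si_NC and 511, 532 and 537 CPM in si_GRB2. The log2 fold change was 0.089 (SE 0.026, adjusted p = 0.0155, edgeR), or 6.37% higher. It no longer passed without si_NC replicate 2 (0.076, adjusted p = 0.081, edgeR), si_NC replicate 3 (0.08, adjusted p = 0.0591), si_GRB2 replicate 2 (0.082, adjusted p = 0.0666) or si_GRB2 replicate 3 (0.074, adjusted p = 0.0728). CDK12, 10213 bases from MED1, had 815, 830.2 and 821 CPM in si_NC and 837, 869.7 and 886 CPM in si_GRB2. Its log2 fold change was 0.072 (SE 0.025, adjusted p = 0.0382, edgeR), with the nearest libraries of both groups 6.81 CPM apart. CDK12 passed without si_GRB2 replicate 1, and did not pass without any other library, with adjusted p-values of 0.16, 0.0834 and 0.121 without si_NC replicates 1, 2 and 3 and of 0.116 and 0.165 without si_GRB2 replicates 2 and 3 (edgeR). The ratio of MED1 to CDK12 overlapped between the groups, with 59.1 to 61.5 reads of MED1 per 100 of CDK12 in si_NC and 60.6 to 61.1 in si_GRB2. With limma on log2(FPKM + 1), none of MED1, CDK12 and PGAP3 passed (adjusted p = 0.206, 0.305 and 0.276).

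MIEN1 had 749, 789 and 755 CPM in si_NC and 789, 741 and 751 CPM in si_GRB2. The ranges of the groups overlapped. The log2 fold change was −0.0082 (SE 0.028, adjusted p = 0.872, edgeR), with a 95% interval from −0.068 to 0.052. Its sign turned in some settings, and it passed the test in 0 of 15 alternatives.

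**Figure D3:**
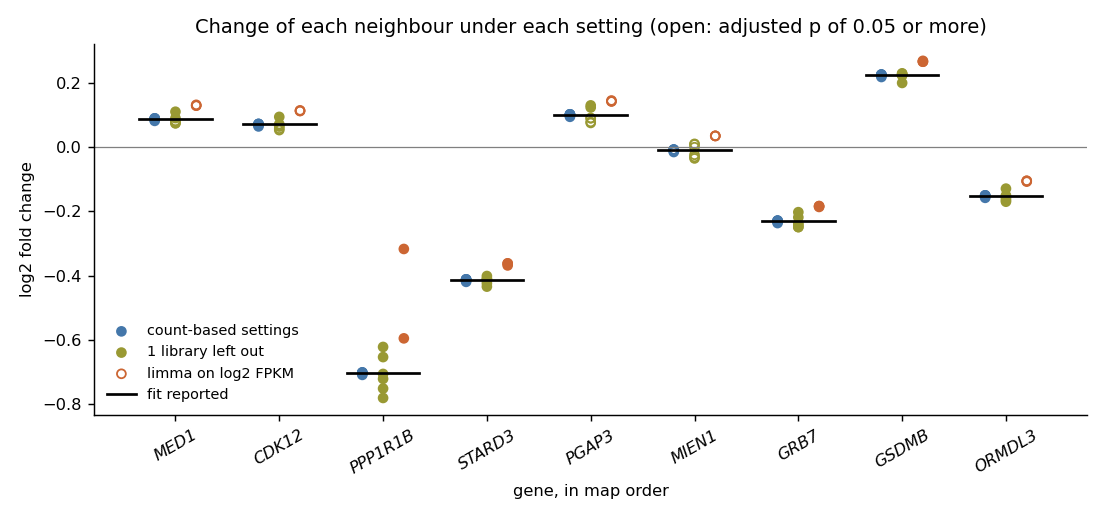
Log2 fold change (si_GRB2 over si_NC) of the 9 neighbours in the fit reported (black lines) and in the alternatives: other count-based settings, fits without 1 library, and limma on log2 FPKM. Filled points have an adjusted p under 0.05 and open points do not. PPP1R1B, STARD3 and GSDMB are filled wherever they were tested, whereas MED1, CDK12 and PGAP3 are open in several settings, and MIEN1 lies on both sides of 0.

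ERBB2 itself had 3557, 3415 and 3527 CPM in si_NC and 4202, 4229 and 3988 CPM in si_GRB2. Its log2 fold change was 0.24 (SE 0.024, adjusted p = 1.14e-06, edgeR). The reads of each neighbour per 100 reads of ERBB2 were compared because this ratio does not depend on library scaling. Since ERBB2 itself rose, a gene that rose by less or did not change has a lower ratio. The ratio was lower in si_GRB2 without overlap in 8 of the 9 genes, among them MIEN1, MED1, CDK12 and PGAP3, and in 55.4% of all other genes tested. STARD3 had 11.7, 12.5 and 12.2 reads per 100 of ERBB2 in si_NC and 7.61, 7.68 and 7.89 in si_GRB2, a ratio of the group means of 0.635. GRB7 had 8.32, 8.73 and 8.73 against 6.18, 6.23 and 6.18, a ratio of the means of 0.721. The ratio of MIEN1 went from 21.1, 23.1 and 21.4 to 18.8, 17.5 and 18.8. GSDMB was the exception, with 16.7, 18 and 17.5 reads per 100 of ERBB2 in si_NC and 17, 16.8 and 17.9 in si_GRB2, where the groups overlapped.

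Ratios between members near each other were also read. STARD3 had 211, 216 and 203 reads per 100 of PGAP3 in si_NC and 145, 147 and 149 in si_GRB2. GRB7 had 39.5, 37.8 and 40.8 reads per 100 of MIEN1 in si_NC and 32.9, 35.5 and 32.8 in si_GRB2. PPP1R1B had 1.56, 1.66 and 1.44 reads per 100 of STARD3 in si_NC and 1.41, 1.11 and 1.29 in si_GRB2. None of these 3 ratios overlapped between the groups, although the last was separated by a small margin, and both its genes fell. The share of other gene pairs without overlap was not computed, and 42.3% of the single genes tested did not overlap. STARD3 over PGAP3 and GRB7 over MIEN1 each set a gene that fell against one that did not, so they restate the changes of single genes. Between STARD3 and PGAP3 lie TCAP and PNMT, which did not pass the test. Together the 9 genes took between 0.371% and 0.377% of all reads in si_NC and between 0.388% and 0.39% in si_GRB2. These are shares of raw reads. The TMM factors were 0.976 to 0.988 in si_NC and 1.015 to 1.02 in si_GRB2, which lowers the CPM of si_GRB2 relative to such shares. The shares therefore do not show a rise of the 9 genes as a group, whose median log2 fold change was −0.0082.

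Of the other 44 tested genes within 1000 kb of the ERBB2 start, 5 rose, 11 fell and 28 did not pass (edgeR, adjusted p under 0.05), with a median log2 fold change of −0.062. Over all genes tested, 15.2% rose and 15.5% fell, or 30.6% in either direction. Between MED1 and ORMDL3, 0 of the 4 other genes tested passed, all of them low, with at most 6.23 FPKM. Of the 13 genes tested from a list of 15 before MED1, 1 rose and 6 fell, among them the actin-binding LASP1 (−0.31, adjusted p = 3.91e-07, edgeR) and MLLT6 (−0.25, adjusted p = 0.000719). Of the 15 tested from a list of 19 after ORMDL3, 4 rose and 5 fell, among them the thyroid hormone receptor THRA (0.31, adjusted p = 0.000131, edgeR) and the focal adhesion gene TNS4 (−0.45, adjusted p = 1.12e-06). The medians of these lists were −0.12 and −0.021, against 0.0019 over all genes tested.

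**Figure D4:**
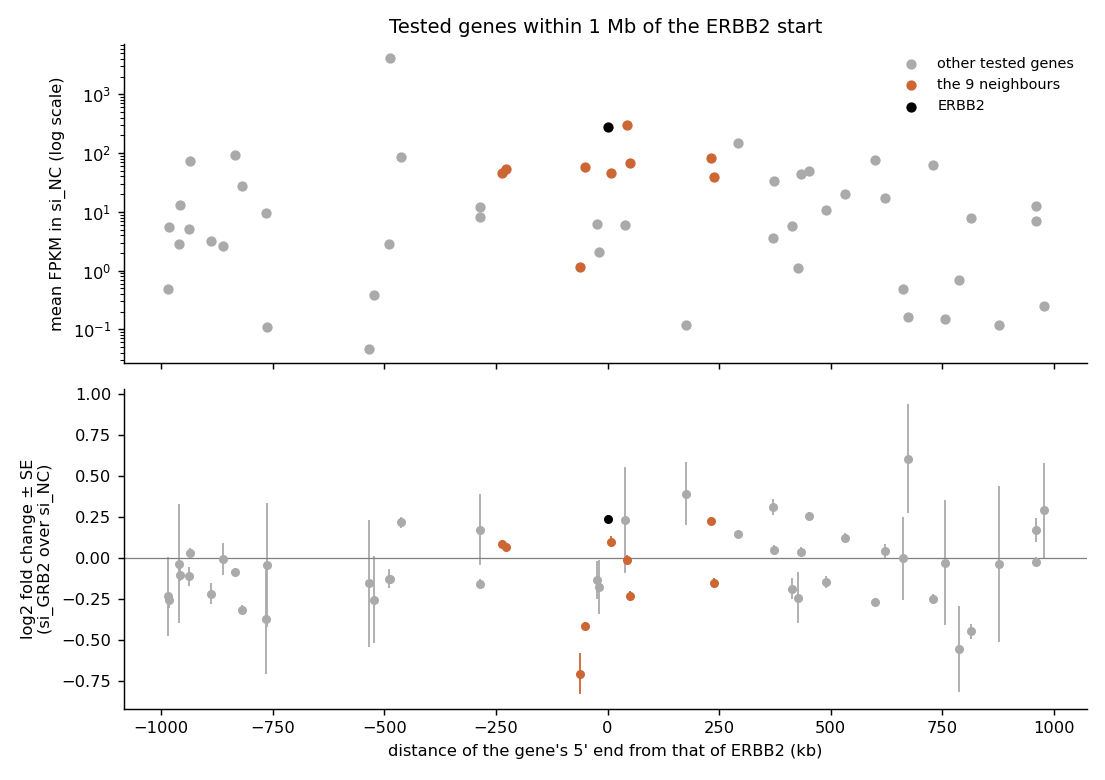
Tested genes within 1 Mb of ERBB2 by the distance of their 5′ end from that of ERBB2 in kb: mean FPKM in si_NC on a log axis (top) and log2 fold change with SE (bottom), with the 9 neighbours in orange, ERBB2 in black and 44 other genes in grey. Neighbours and other genes lie both above and below 0. Of the 19 other genes tested before MED1, 6 fell, 1 rose and 12 did not pass.

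The partners and relatives of each neighbour were examined from lists of genes. MED1 is one of many Mediator subunits, and of the 32 other Mediator genes 4 rose, 6 fell and 22 did not pass, with a median log2 fold change of 0.0083. The largest changes that passed were MED11 (0.68, adjusted p = 4.15e-07, edgeR) and the Mediator kinase CDK8 (0.29, adjusted p = 0.000774). Of 8 partners of CDK12 and related transcription kinases, 2 rose, CDK9 (0.25, adjusted p = 0.00181, edgeR) and CCNT2 (0.24, adjusted p = 0.00216), and 1 fell, with a median of 0.075. The share of called genes in the Mediator list, 10 of 32, was near the 30.6% of all genes tested.

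ORMDL3 fell, as given above, by 0.15 on the log2 scale. Of the 7 other genes of the ORMDL and serine palmitoyltransferase list, 5 rose, 0 fell and 2 did not pass, with a median of 0.23, where 15.2% of all genes tested rose and their median was 0.0019. Here ORMDL2, a close relative of ORMDL3, was higher, by 0.20 on the log2 scale (adjusted p = 0.000641, edgeR). The small subunits of serine palmitoyltransferase, which starts sphingolipid synthesis, rose as well, SPTSSA by 0.29 (adjusted p = 5.92e-06, edgeR) and SPTSSB by 0.25 (adjusted p = 0.00113). ORMDL1 had a value of 0.0019 and did not pass (adjusted p = 0.981).

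Of the 8 sterol transfer partners of STARD3 that were tested, 2 rose and 2 fell, with a median of 0.0099. For this list and the next, the shares over all genes tested were 15.2% higher and 15.5% lower. VAPA, the endoplasmic reticulum protein that holds STARD3 at membrane contacts, fell (−0.46, adjusted p = 7.86e-08, edgeR), and MOSPD2, another such tether, rose (0.49, adjusted p = 0.00171). Of the 7 genes tested from GPI anchor remodelling, 2 rose and 1 fell, with a median of −0.068. PGAP2, which acts after PGAP3, fell (−0.49, adjusted p = 2.33e-07, edgeR), and the GPI-anchored complement inhibitor CD59 rose (0.30, adjusted p = 1.86e-06).

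The remaining lists are short, and their counts stand beside 15.2% higher and 15.5% lower over all genes tested. Among the gasdermins besides GSDMB, 3 of 5 were tested, with a median of 0.43. GSDMC rose from a low level of 2.25 CPM (log2 fold change 0.95, adjusted p = 0.000301, edgeR), and GSDMD, the main executor of pyroptosis, fell (−0.15, adjusted p = 0.022). The selenoprotein W-like relatives of MIEN1 included 2 that rose, SELENOW (0.27, adjusted p = 1e-05, edgeR) and SELENOT (0.24, adjusted p = 2.95e-05), of 3 tested, with a median of 0.245. In the family of GRB7, GRB10 rose (0.26, adjusted p = 0.00679, edgeR) and GRB14 did not pass (−0.81, adjusted p = 0.116) at 0.707 CPM, their median being −0.28. Of the 5 genes tested around protein phosphatase 1, the target of DARPP-32, with a median of 0.07, the catalytic subunit PPP1CA fell (−0.14, adjusted p = 0.000979, edgeR) and 2 rose, of which PPP1R2 had a value of 0.14 (adjusted p = 0.0336).

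**Figure D5:**
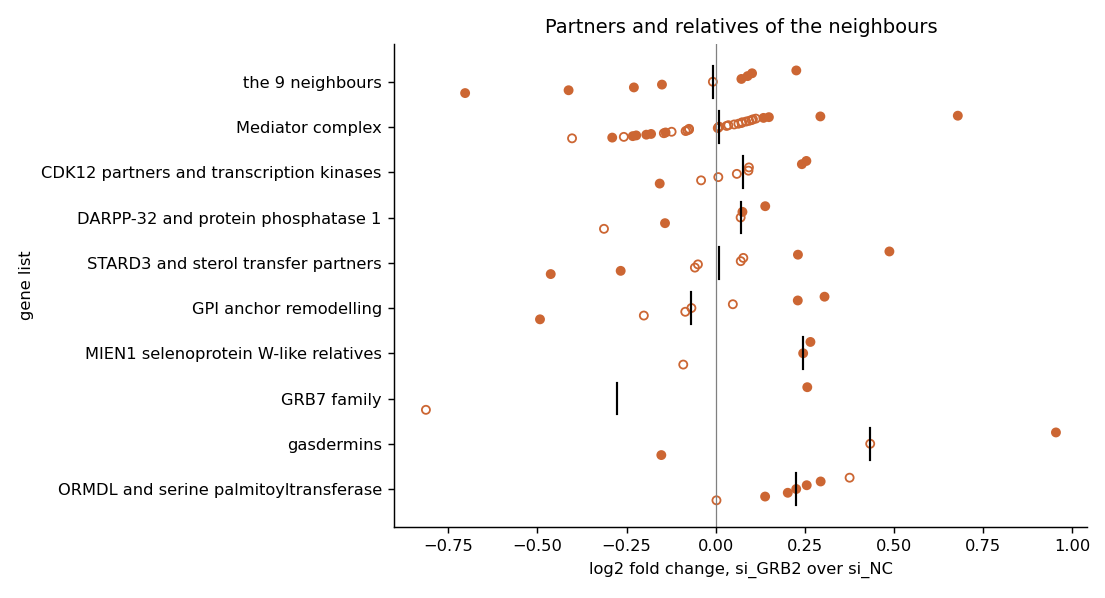
Log2 fold change (si_GRB2 over si_NC) of the 9 neighbours and of the tested genes of each list of partners and relatives, with 1 point per gene, filled where the adjusted p was under 0.05, and the list's median as a black line. The ORMDL and serine palmitoyltransferase list has 5 filled points, all above 0, while ORMDL3 is at −0.15.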

How the data were processed

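The authors trimmed reads with FASTX-Toolkit, aligned them with HISAT2 to GRCh38, and used the reads that mapped to a single place. They deposited the raw read count per gene and FPKM, rounded by the authors; the counting tool, its use of strand, the annotation release and the FPKM total are not given in the sources used here. From the counts, edgeR 4.0.16 (R 4.3.3) with TMM factors and filterByExpr (15801 genes kept) compared si_GRB2 with si_NC (3 libraries each, 24810378 to 28532480 reads on genes) by the quasi-likelihood test on all genes, with Benjamini-Hochberg adjustment over them. SE is the estimate over the square root of F. Levels between genes used the deposited FPKM. Positions and overlaps came from GENCODE 44 on GRCh38, in which all 9 gene IDs were found, and promoters from RefSeq.

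The 9 genes, the lists and the tests were chosen with earlier results of these data known. Named genes are the 9, ERBB2, GRB2, up to 2 genes of each list with the largest absolute change at an adjusted p under 0.05, and the 3 most like the neighbour that changed most. ORMDL1, ORMDL2, GRB14, IKZF3, TCAP, PNMT, RPL19 and single markers were named after their values were seen, and the ratios to other genes and the group of genes with at least 100 CPM were also chosen then. Alternatives were DESeq2 1.42.0, its size factors, other filters, a robust fit, glmTreat, limma 3.58.1 on log2(FPKM + 1) or log2(FPKM + 0.1), a replicate block, and each library left out. The deviations of same-numbered libraries from their group means had correlations of 0.232, −0.0948 and 0.0804 for numbers 1, 2 and 3. Libraries of unlike number had −0.282 to 0.228. The value for number 1 was the highest of all, but the same-numbered values did not stand apart as a set, so the numbers were not taken to pair libraries. Replicates differed by more than counting noise (chi-square per degree of freedom 2.06 to 4.55). Python 3.11.15 with pandas 2.3.3 and matplotlib 3.10.9 made the other tables and figures. The immunoprecipitation libraries and splicing were not analysed here.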

Additional observations from a re-analysis of the deposited data

How the results depend on the processing

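Of 134 refits of the changes of the 9 genes, 98 kept direction and side of the threshold, 30 kept the direction and lost the call, 0 gained one and 6 changed sign. All 6 that changed sign were of MIEN1. With limma they were 0.0353 on log2(FPKM + 1), with or without a minimum mean of 1 FPKM, and 0.0354 on log2(FPKM + 0.1). The other 3 were 0.0088 without si_NC replicate 2, 0.0105 without si_GRB2 replicate 2 and 2.19e-05 without si_GRB2 replicate 3. Over all 6 fits with 1 library left out, MIEN1 ranged from −0.0349 to 0.0105. The 30 lost calls were of CDK12 (11), MED1 and PGAP3 (7 each), ORMDL3 (3) and GRB7 (2). Of 8 genes past an adjusted p of 0.05, 3 passed with each of the limma settings on FPKM, and 5 to 7 with 1 library left out. Calls were fewer over all genes too. They numbered 4838 in the fit reported, 1400, 1534 and 2689 in the limma settings, and 3774 to 4420 with 1 library left out. The single gene past the DEG limits, PPP1R1B, passed in every fit with 1 library left out (1 to 1). In each of the limma settings on FPKM 0 of the 9 passed, and in one of them the minimum mean of 1 FPKM had removed PPP1R1B before the test. Of all genes, 79 of 29912 passed on log2(FPKM + 1), 144 of 29912 on log2(FPKM + 0.1) and 96 of 10888 with the minimum mean. With glmTreat, which tests against the fold limit itself, 0 of the 9 passed and 56 of all 15801 genes tested did. The cause of the fewer calls on FPKM was not tested. With the replicate block 7 genes passed, CDK12 being lost (0.071, adjusted p = 0.0905, edgeR), although the numbers were not taken to pair libraries. GRB2 stayed between −2.18 and −2.13 with 1 library left out. Levels in si_NC recomputed from counts and exon lengths were 57.5 for MED1, 63.4 for CDK12, 1.45 for PPP1R1B, 72.7 for STARD3, 56 for PGAP3, 375 for MIEN1, 83.6 for GRB7, 103 for GSDMB and 48.4 for ORMDL3. Depth limits PPP1R1B most.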
